A study of Rattus norvegicus with 12 samples.

Results

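Semaphorins are guidance ligands, plexins are their signalling receptors and neuropilins are co-receptors that bind the secreted class 3 semaphorins. The genes described here are those whose single annotated symbol on the array is a semaphorin of classes 3 to 7, a plexin or a neuropilin. There were 25 of them among 18166 genes with 1 symbol, of which 19 encode semaphorins, 4 encode plexins (Plxna2, Plxna3, Plxnb3 and Plxnd1) and 2 encode neuropilins (Nrp1 and Nrp2). They came from 26 features of the array, because Sema4d had 2, and the brighter one was used. Plxna1, Plxna4, Plxnb1, Plxnc1 and Sema6a were not analysed here, and neither was Plxnb2, whose feature also carries the symbol of a microRNA gene.

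The cells were skin-derived precursors (SKPs), dermal precursor cells grown as floating spheres, from newborn Sprague-Dawley rats, in medium with the growth factors FGF2 and EGF. Cells of dissociated secondary spheres were cultured for 24 h in 4 groups of 3 arrays each. One group received 100 nM trimebutine maleate together with 100 nM trametinib, one 100 nM trimebutine maleate alone, one 100 nM alprostadil, and one vehicle. Trametinib blocks MEK and with it the ERK pathway, alprostadil is prostaglandin E1, and trimebutine is given for disorders of gut movement. No group received trametinib alone, so what the drug changed could be seen only in cells that also had trimebutine. The study used 3 independent isolates of cells, and the 3 replicate numbers, which every group has, were taken to mark them. Of 15 markers of dermal precursors and mesenchyme 14 were measured, all with means above the low-signal limit (a log2 value of 5.83), among them Nes, Ngfr, Sox2 and Pdgfra.

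Class 3 semaphorins are secreted, bind neuropilins and signal through A and D plexins. Those of classes 4, 5 and 6 span the membrane, and Sema7a is anchored by a lipid tail and binds plexin C1 and beta1 integrins. The pathway is best known for steering axons and blood vessels. In skin, cells of the dermis and epidermis release semaphorins that act on nerve fibres and vessels, and neuropilins also bind vascular endothelial growth factors.

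In a fit with a mean per group, trametinib added to trimebutine lowered 3 semaphorin genes and raised 3 others together with both neuropilin genes. The 4 measured plexin genes did not pass, although Plxna2 did once the replicate number was added to the fit as a block. Of the 24 genes of the families that were above the low-signal limit, 5 rose and 3 fell at an adjusted p under 0.05 (limma, Benjamini-Hochberg adjustment over all 13636 genes tested). Over all genes tested, 33.4% changed in this comparison, 16.8% higher and 16.6% lower. In this fit the 8 of 24 (33.3%) are thus no larger a share than that of other genes. In the fit with the replicate number as a block, 13 of the 24 were called (54.2%), beside 42.0% of all genes tested. The median difference of the 24 was 0.07, beside 0.03 over all genes tested. Of the 24, 4 differed by more than 1 on the log2 scale (16.7%), as did 4.82% of all genes tested. Trimebutine alone and alprostadil changed none of the 24 in the fit across the 4 groups.

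The promoters of 2 genes that fell and 2 that rose are given, as 300 bases from RefSeq on the GRCr8 assembly that run from 250 bases before the start of the gene to 50 after it. They are shown so that genes of the same pathway that moved in opposite directions can be set side by side. The table held promoters of 19 of the 25 genes. Capitals mark the GC box GGGCGG and the ETS site CGGAAG, each searched on both strands, where the other strand reads CCGCCC and CTTCCG. Sema7a lies at chr8:67244068-67244367 (plus strand), Sema6d at chr3:132337106-132337405 (plus strand), Nrp1 at chr19:73256307-73256606 (plus strand) and Sema3c at chr4:18699578-18699877 (minus strand).
Sema7a: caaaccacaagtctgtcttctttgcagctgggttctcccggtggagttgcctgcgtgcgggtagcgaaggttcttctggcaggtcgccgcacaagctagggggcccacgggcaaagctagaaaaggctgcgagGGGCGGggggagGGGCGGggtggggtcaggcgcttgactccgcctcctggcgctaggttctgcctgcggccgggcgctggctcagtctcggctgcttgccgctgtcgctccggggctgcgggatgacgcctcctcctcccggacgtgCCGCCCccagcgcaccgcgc
Sema6d: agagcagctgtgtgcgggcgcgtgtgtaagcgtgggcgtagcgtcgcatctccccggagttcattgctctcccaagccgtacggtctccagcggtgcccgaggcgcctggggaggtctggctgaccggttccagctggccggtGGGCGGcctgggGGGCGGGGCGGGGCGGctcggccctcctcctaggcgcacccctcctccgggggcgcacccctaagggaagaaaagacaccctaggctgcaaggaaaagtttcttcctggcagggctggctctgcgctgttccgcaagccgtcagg
Nrp1: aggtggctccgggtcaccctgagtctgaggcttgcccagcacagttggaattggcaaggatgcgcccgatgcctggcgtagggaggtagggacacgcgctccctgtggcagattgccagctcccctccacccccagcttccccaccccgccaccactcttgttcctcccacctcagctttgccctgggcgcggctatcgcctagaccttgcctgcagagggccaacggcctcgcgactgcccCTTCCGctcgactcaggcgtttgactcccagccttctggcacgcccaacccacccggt
Sema3c: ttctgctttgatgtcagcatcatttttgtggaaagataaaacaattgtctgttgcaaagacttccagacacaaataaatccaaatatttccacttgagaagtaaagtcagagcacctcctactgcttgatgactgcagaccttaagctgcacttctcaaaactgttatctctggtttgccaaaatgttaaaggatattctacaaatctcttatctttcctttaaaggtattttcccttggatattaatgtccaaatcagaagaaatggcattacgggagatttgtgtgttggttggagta
The GC box stood 3 times in the Sema7a window and 4 times in that of Sema6d, where neighbouring copies overlap, and in neither of the other windows shown. It was in 10 of the 19 promoters of these families and in 33.1% of 33465 promoters of the same length. Those 33465 were not selected by kind of gene. Of the families, Sema4b, which rose, had it, while Nrp2 and Sema3d, which also rose, lacked it. The others with it were Plxna2, Plxna3, Plxnd1, Sema3e, Sema3g, Sema4a and Sema4c, which did not pass without the block. Sema3a, which fell, was not among the 19. The ETS site CGGAAG was in the Nrp1 window, 8 bases before the start, and in that of Sema4a, and in 16.6% of all promoters. It is longer than GGAA, the centre of ETS sites. A window without it can still hold GGAA, as that of Sema3c does, and GGAA was not counted. The AP-1 site TGACTCA and the cyclic AMP response element TGACGTCA, on both strands, were in none of the 19 windows, and in 4.63% and 1.83% of all promoters. The Sema3c window had a GC content of 36.3%, and the windows of Sema7a, Sema6d and Nrp1 had 69.7%, 69.0% and 66.3%.

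Sema7a, the lipid-anchored ligand, had log2 values of 9.52, 9.20 and 9.40 in cells given trimebutine with trametinib, against 11.75, 11.66 and 11.61 with trimebutine alone, 11.42, 11.46 and 11.40 with alprostadil and 11.72, 11.66 and 11.63 with vehicle. All 3 arrays with trametinib lay below all 9 others. The gene fell by 2.30 on the log2 scale against trimebutine (SE 0.08, adjusted p = 8.6e-09 by limma), which is 4.93-fold lower. Within each replicate number the difference was −2.23, −2.47 and −2.21. Among the 13636 genes tested it was the 54th largest fall.

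Sema3a, a secreted repellent of sensory axons that binds neuropilin 1, had log2 values of 9.89, 10.00 and 10.31 in cells given trimebutine with trametinib, against 12.33, 12.30 and 12.44 with trimebutine alone, 12.54, 12.42 and 12.57 with alprostadil and 12.32, 12.27 and 12.39 with vehicle. All arrays with trametinib lay below all of the others. Against trimebutine Sema3a fell by 2.29 (SE 0.10, adjusted p = 3.59e-08 by limma), or 4.90-fold, with differences of −2.44, −2.30 and −2.14 within the 3 replicate numbers.

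Sema6d, a transmembrane ligand of plexin A1, showed a fall of like kind. Its log2 values were 8.33, 8.18 and 8.28 in cells given trimebutine with trametinib, against 9.99, 10.07 and 10.20 with trimebutine alone, 10.10, 10.09 and 10.20 with alprostadil and 9.99, 10.02 and 10.17 with vehicle. The arrays with trametinib again lay below all others. The difference was −1.82 (SE 0.07, adjusted p = 3.54e-08 by limma), a 3.53-fold fall. Without the block these are all of the falls among the 24 genes, and they came from classes 3, 6 and 7 of the ligands. With the block Plxna2 and the class 4 ligand gene Sema4c were called lower as well.

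Sema3c and Sema3d, secreted ligands of the same class as Sema3a, rose. Sema3c had log2 values of 11.75, 11.73 and 11.60 in cells given trimebutine with trametinib, against 10.63, 11.00 and 10.49 with trimebutine alone, 10.57, 10.84 and 10.60 with alprostadil and 10.72, 10.94 and 10.55 with vehicle. Every array with trametinib lay above every other one. The rise against trimebutine was 0.99 (SE 0.13, adjusted p = 0.000161 by limma), or 1.98-fold. Sema3d had log2 values of 10.37, 10.51 and 10.91 in cells given trimebutine with trametinib, against 9.80, 9.61 and 10.06 with trimebutine alone, 10.21, 9.80 and 9.97 with alprostadil and 9.89, 9.51 and 10.02 with vehicle, and rose by 0.77 (SE 0.17, adjusted p = 0.00504 by limma), or 1.71-fold. The lowest Sema3d array with trametinib, that of replicate 1, stood close above the highest of the others. On GRCr8 no protein-coding gene lies between Sema3a and Sema3d on chromosome 4, while 4 lie between Sema3c and Sema3e and 12 between Sema3e and Sema3a. In this stretch of 4 class 3 genes, Sema3a fell, its direct neighbour Sema3d rose, Sema3c rose, and Sema3e did not pass (0.06, SE 0.13, adjusted p = 0.761 by limma).

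Sema4b, a transmembrane ligand, had log2 values of 8.24, 8.42 and 8.09 in cells given trimebutine with trametinib, against 7.99, 7.96 and 7.91 with trimebutine alone, 7.64, 7.95 and 7.87 with alprostadil and 8.00, 8.02 and 8.00 with vehicle. The arrays with trametinib lay above all others, by little. The rise was 0.30 (SE 0.09, adjusted p = 0.0256 by limma), or 1.23-fold. It did not pass without trimebutine replicate 2 (adjusted p = 0.0600), trimebutine replicate 3 (adjusted p = 0.0731), or trimebutine with trametinib replicate 1 (adjusted p = 0.0547) or 2 (adjusted p = 0.108).

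Both co-receptor genes rose. Nrp1, which encodes neuropilin 1, the co-receptor of Sema3a and of vascular endothelial growth factor A, had log2 values of 11.48, 11.22 and 11.23 in cells given trimebutine with trametinib, against 10.18, 9.86 and 10.12 with trimebutine alone, 10.19, 10.09 and 10.18 with alprostadil and 10.32, 9.91 and 10.11 with vehicle. The arrays with trametinib stood apart from the other 9. Nrp1 rose by 1.26 against trimebutine (SE 0.11, adjusted p = 7.87e-06 by limma), or 2.39-fold, so that the ligand gene Sema3a fell while the gene of its co-receptor rose. Nrp2, which encodes neuropilin 2, the co-receptor of Sema3f and of vascular endothelial growth factor C, had log2 values of 10.21, 10.39 and 10.46 in cells given trimebutine with trametinib, against 9.25, 9.77 and 9.72 with trimebutine alone, 9.13, 9.48 and 9.60 with alprostadil and 9.32, 9.60 and 9.78 with vehicle. It rose by 0.77 (SE 0.16, adjusted p = 0.00338 by limma), or 1.71-fold. Replicate 1 had the lowest Nrp2 value in each of the 4 groups.

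**Figure D1:**
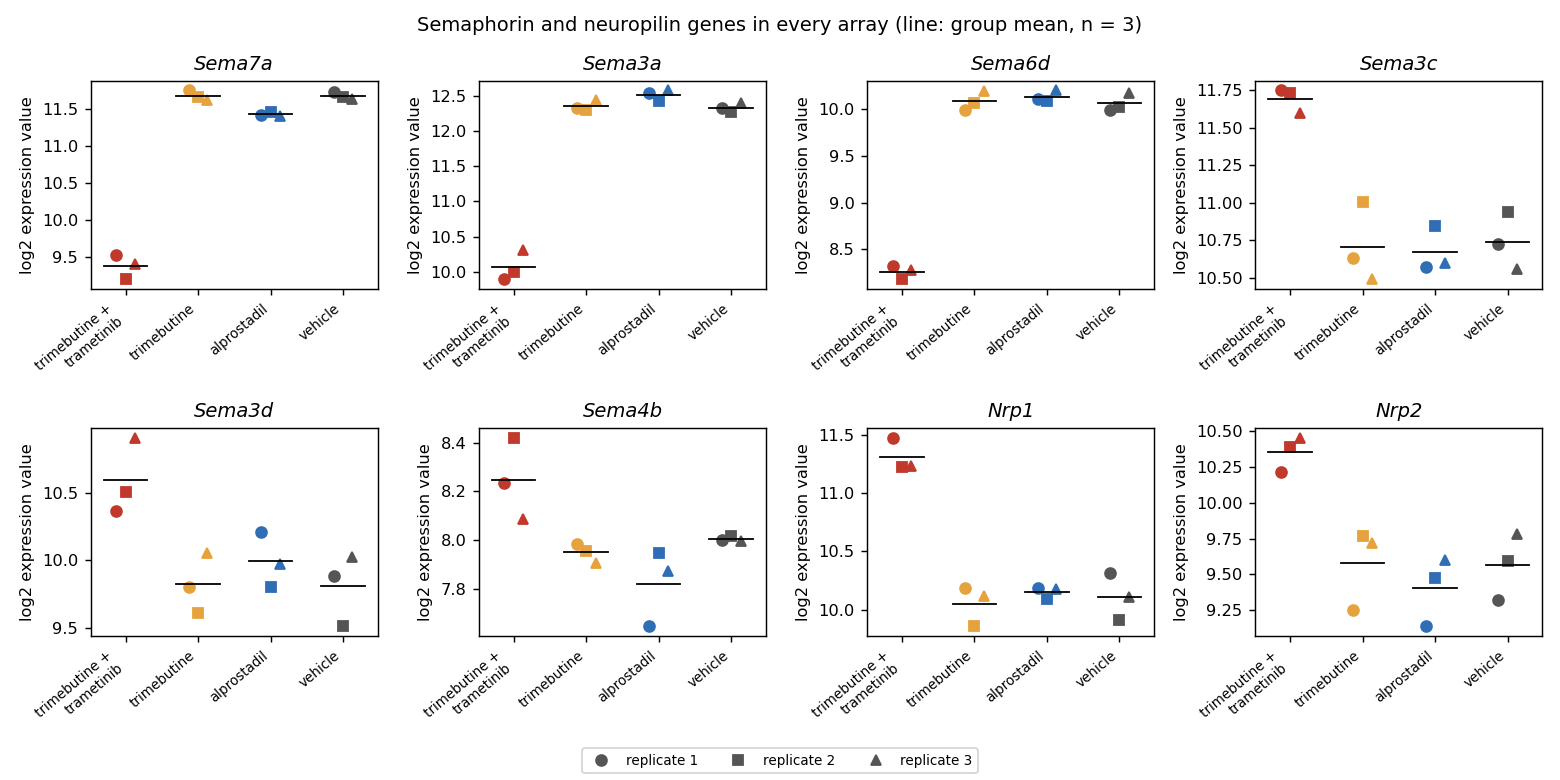
Log2 expression value of the 8 semaphorin and neuropilin genes that changed, without the block, when trametinib was added. There is a point for each array (shape: replicate number) and a line at the mean of each group of 3. The 4 groups stand along the x axis. Sema7a, Sema3a and Sema6d are low, and Sema3c, Sema3d, Sema4b, Nrp1 and Nrp2 high, in the trimebutine with trametinib arrays.

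Without the block the plexin genes, which encode the signalling receptors, did not pass. Plxna2, a receptor of class 3 and class 6 ligands, had a difference of −0.24 (SE 0.12, adjusted p = 0.155, or adjusted p = 0.0227 with the block, by limma). Plxna3, also a receptor of class 3 ligands, had 0.09 (SE 0.10, adjusted p = 0.548 by limma). Plxnb3, a receptor of Sema5a, had 0.25 (SE 0.12, adjusted p = 0.135 by limma). Plxnd1, the receptor of Sema3e in vessels, had 0.10 with a 95% interval from −0.02 to 0.21 (adjusted p = 0.185 by limma).

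Without the block the other ligands did not pass either. Among them were the neuropilin 2 ligand gene Sema3f (0.18, SE 0.10, adjusted p = 0.200 by limma), Sema5a (0.15, SE 0.08, adjusted p = 0.166 by limma) and Sema3b (0.27, SE 0.10, adjusted p = 0.0523 by limma). The 16 genes that did not pass had differences from −0.24 to 0.27. Sema4f, with a mean log2 value of 5.65, was under the low-signal limit and was not tested. Its values lay between 5.53 and 5.84 in all arrays. Groups did not overlap for 10 of the 24 genes (41.7%), beside 45.8% of all genes tested.

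The replicate number as a block in the fit takes out differences between the numbers. With it 8 of the 24 rose and 5 fell (54.2%), beside 42.0% of all genes tested called in that fit (21.2% higher and 20.8% lower). The 8 genes above kept their calls. The additional rises were Sema3b (adjusted p = 0.0154), Sema3f (adjusted p = 0.0263) and Sema5a (adjusted p = 0.0451), and the additional falls were Plxna2 (adjusted p = 0.0227) and Sema4c (adjusted p = 0.0356), all by limma.

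The combination was also compared with vehicle, a comparison that shares the arrays of the combination with the one above. Here 4 of the 24 rose and 3 fell, beside 35.0% of all genes tested (17.5% higher and 17.5% lower). Sema7a (−2.30), Sema3a (−2.26) and Sema6d (−1.80) were lower, and Nrp1 (1.20), Sema3c (0.95), Sema3d (0.79) and Nrp2 (0.79) were higher. Sema4b had 0.24 and did not pass (adjusted p = 0.0594 by limma). With the block 8 rose and 4 fell, beside 43.2% of all genes tested (22.1% higher and 21.1% lower). Groups did not overlap for 12 of the 24, beside 47.3% of all genes tested. Sema4b (adjusted p = 0.0325), Sema3b (adjusted p = 0.0241), Sema5a (adjusted p = 0.0169) and Sema3f (adjusted p = 0.0244) joined the rises and Sema4c (adjusted p = 0.0370) the falls, by limma.

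Alprostadil changed none of the 24 genes by limma, beside 0.389% of all genes tested (0.323% higher and 0.0660% lower). With the block none of the 24 passed either, beside 1.88% of all genes tested (1.17% higher and 0.711% lower). At an unadjusted p under 0.05 there was 1 of the 24, Sema7a, beside 950 of the 13636 genes. With the block there were 7 of the 24, beside 1800 of the 13636. The Sema7a values of 11.42, 11.46 and 11.40 with alprostadil all lay below the vehicle values of 11.72, 11.66 and 11.63. The difference was −0.24 (SE 0.08, adjusted p = 0.422, or adjusted p = 0.131 with the block, by limma). Its 95% interval without the block ran from −0.41 to −0.07. Within the replicate numbers the Sema7a difference was −0.30, −0.19 and −0.23. Next by p were Sema4b (−0.18, SE 0.09, adjusted p = 0.767 by limma) and Sema3a (0.19, SE 0.10, adjusted p = 0.778 by limma). The 95% interval of the alprostadil difference ran from −0.21 to 0.29 for Nrp1 and from −0.52 to 0.19 for Nrp2. Groups did not overlap for 4 of the 24 genes, beside 11.6% of all genes tested. Outside the families, Nr4a1 and Pde4b, set as drug checks, passed for alprostadil. Nr4a1 rose by 2.46, and Pde4b had a mean log2 value of 7.68, against 6.44 with vehicle.

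Trimebutine against vehicle changed none of the 24 by limma, and 0% of all genes tested, with or without the block. None of the 24 had an unadjusted p under 0.05 in either fit, and 143 of the 13636 genes had one without the block. The differences ran from −0.07 to 0.14. The smallest p-values were those of Sema4g (0.14, SE 0.10), Plxnd1 (−0.04, SE 0.05) and Plxna2 (0.08, SE 0.12), each with adjusted p = 1.00 by limma. Groups did not overlap for 1 gene, Sema4b, beside 4.23% of all genes tested. For the genes that moved with trametinib, the 95% interval of the trimebutine difference ran from −0.16 to 0.18 for Sema7a, from −0.18 to 0.24 for Sema3a and from −0.14 to 0.19 for Sema6d. It ran from −0.33 to 0.26 for Sema3c, from −0.37 to 0.40 for Sema3d and from −0.26 to 0.15 for Sema4b. For the neuropilin genes it ran from −0.31 to 0.19 (Nrp1) and from −0.35 to 0.37 (Nrp2).

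**Figure D2:**
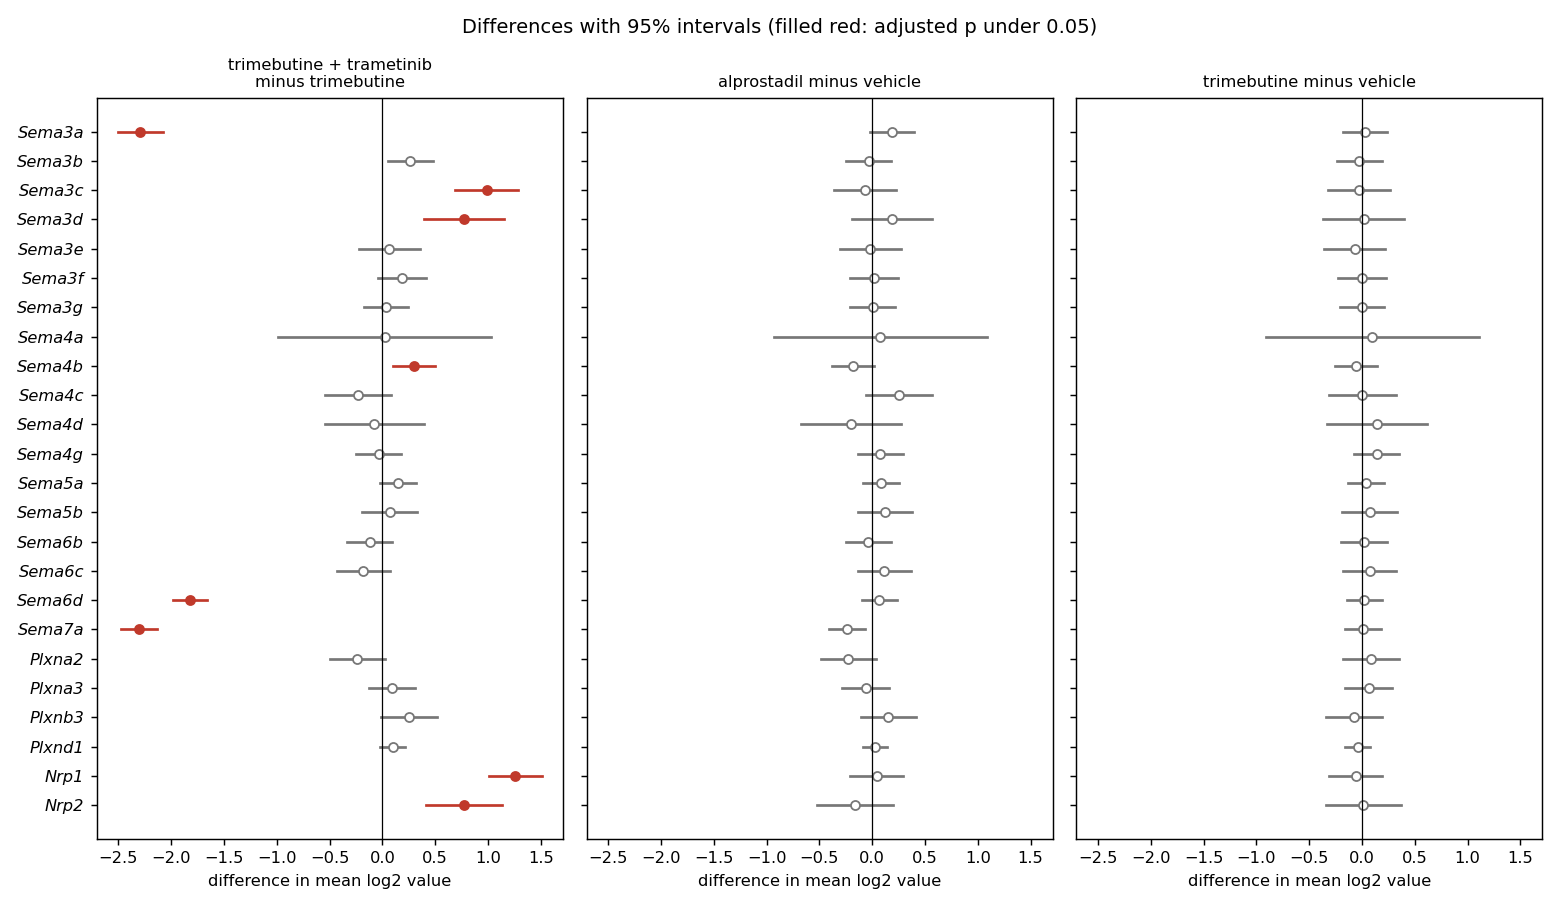
Difference in mean log2 value (x axis) with its 95% interval for the 24 genes tested (y axis, ordered by ligand class, plexins and neuropilins) in 3 comparisons. Points and intervals are from the fit without the block. Filled red points passed an adjusted p of 0.05. There are 8 in the comparison of trimebutine with trametinib against trimebutine and none in the others.

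A moderated F test over the 4 groups called the same 8 genes as the comparison with trimebutine alone (8 of 24, beside 32.5% of all genes tested), Sema4b with adjusted p = 0.0184 and the others with adjusted p from 1.36e-08 to 0.0111, by limma.

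Genes whose products carry semaphorin signals inside the cell were also followed. Of 38 listed, 35 were tested, and 12 rose and 2 fell when trametinib was added (median 0.13, beside 0.03 over all genes tested). These are 40.0% of the list, beside 33.4% of all genes tested (16.8% higher and 16.6% lower). With the block 12 rose and 4 fell, beside 21.2% higher and 20.8% lower over all genes tested in that fit. The additional falls were Pak1 and Dpysl3. Rras2, a relative of the Ras-type GTPases on which plexins act, had the largest rise, with a difference of 1.25 (SE 0.12, adjusted p = 1.38e-05 by limma). Farp2, an exchange factor that binds A plexins, rose by 0.78 (SE 0.08, adjusted p = 1.92e-05 by limma). Fyn, a kinase downstream of Sema3a, rose by 0.44 (SE 0.05, adjusted p = 4.9e-05 by limma), and the GTPase gene Rhoa by 0.40. The monooxygenase genes Mical1 (0.63) and Mical2 (0.57), whose products bind plexins and act on actin, were among the rises too. The falls were Rhod (−0.52, adjusted p = 0.0174 by limma) and Rap1b (−0.19, adjusted p = 0.0253 by limma), small GTPase genes. Rhod did not pass without trimebutine replicate 2 or 3 or trimebutine with trametinib replicate 1 (adjusted p from 0.0516 to 0.0642), and Rap1b did not pass without trimebutine replicate 3 or trimebutine with trametinib replicate 1 or 2 (adjusted p from 0.0708 to 0.0978), with the mean of its features (adjusted p = 0.102) or in the fit of the compared groups alone (adjusted p = 0.0803). The collapsin response mediators Dpysl2, Dpysl3, Dpysl4 and Dpysl5, which relay Sema3a signals in neurons, did not pass, with differences from −0.27 to 0.17. With the block Dpysl3 (−0.27) passed (adjusted p = 0.0116 by limma).

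Among surface partners and ligands that share these receptors, 26 were listed and 20 tested, of which 1 rose and 5 fell (median 0.07), beside 16.8% higher and 16.6% lower over all genes tested. With the block 3 rose and 5 fell, beside 21.2% higher and 20.8% lower over all genes tested in that fit. The additional rises were Itgb1 and Cspg4. Vegfa, whose product binds neuropilin 1, had a difference of −1.21 (SE 0.08, adjusted p = 4.52e-07 by limma). Vegfc, whose product binds neuropilin 2, fell by 0.77 (SE 0.12, adjusted p = 0.000521 by limma). Both of these ligand genes fell while both neuropilin genes rose. Pgf, another gene of this list, had 0.10 and did not pass (adjusted p = 0.427 by limma). The class 3 ligand genes Sema3c and Sema3d rose, as the neuropilin genes did. Met, a receptor kinase that pairs with B plexins, had −1.17, the integrin gene Itga5 −0.35 and the protease gene Adam17 −0.33. Flt1, a VEGF receptor gene, rose by 0.55 (SE 0.08, adjusted p = 0.000379 by limma). Itgb1, the integrin beta chain bound by Sema7a, had 0.16 and did not pass (adjusted p = 0.0616 by limma, and adjusted p = 0.0340 with the block). With alprostadil, Vegfa rose by 0.73 (SE 0.08, adjusted p = 0.00226 by limma), and no other of the 55 partner genes passed.

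Genes of the other guidance systems, the netrins, Slits, ephrins and their receptors, moved in both directions. Of 38 tested, 8 rose and 8 fell with trametinib (42.1%, median −0.05), beside 33.4% of all genes tested. With the block 11 rose and 11 fell, beside 21.2% higher and 20.8% lower over all genes tested in that fit. Ntn1, the netrin 1 gene, had a difference of −1.83 (SE 0.11, adjusted p = 4.11e-07 by limma), whereas Ntn4, the gene of another netrin, rose by 1.49 (SE 0.10, adjusted p = 6.44e-07 by limma). The receptor kinase genes Ephb3 (1.45) and Ephb2 (1.05) and the ligand gene Efnb2 (0.43) rose. Epha2 (−1.20), Draxin (−1.37), which encodes a netrin-binding guidance protein, and Flrt3 (−0.79) fell. No gene of this list passed for alprostadil or trimebutine. With the block, Draxin (0.71, adjusted p = 0.00541) and Robo1 (0.39, adjusted p = 0.0162) rose and Ntn4 (−0.42, adjusted p = 0.0176) fell with alprostadil, by limma.

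**Figure D3:**
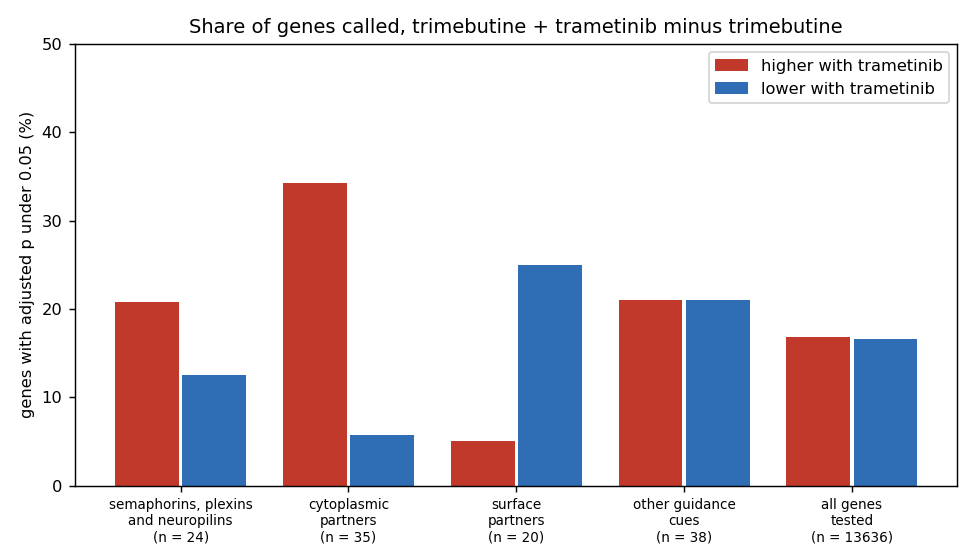
Percentage of tested genes (y axis) that were higher (red) or lower (blue) at an adjusted p under 0.05 in trimebutine with trametinib against trimebutine, for 4 lists and for all genes tested. In this fit, without the block, the semaphorin, plexin and neuropilin genes (5 higher and 3 lower of 24) lie near the shares of all genes (16.8% and 16.6%). The cytoplasmic partners have 12 higher and 2 lower of 35.

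**Figure D4:**
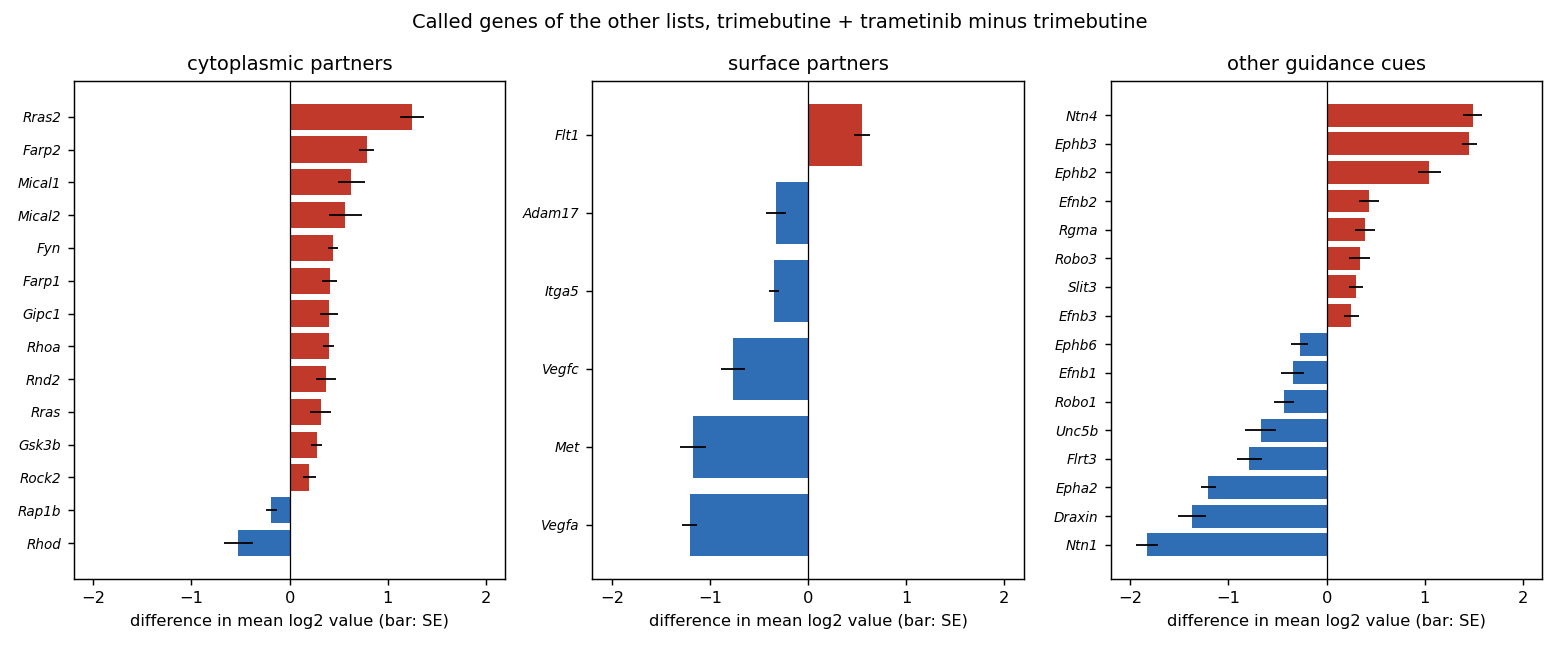
Difference in mean log2 value (x axis, bars with SE) for trimebutine with trametinib against trimebutine, in the fit without the block. Shown are the genes that passed in the 3 other lists (cytoplasmic partners, surface partners, other guidance cues). Red bars are higher and blue bars lower with trametinib, from Ntn4 at 1.49 to Ntn1 at −1.83.

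Other features of the cultures moved with the trametinib difference. The ERK target genes Dusp6 and Spry4 fell by 3.23 and 2.01. Of the other genes set as drug checks, Nr4a1 rose by 1.76 and Pde4b did not pass. All 12 mitosis genes fell (median −2.33), with summed log2 values from 83.0 to 84.3 in arrays with trametinib, against 108.1 to 112.3 with trimebutine alone. In whole cultures fewer cells of a type and less RNA per cell cannot be told apart, and the part of proliferation in the semaphorin and neuropilin differences was not tested. Of 8 measured endothelial markers 6 were tested and none passed, with summed log2 values of 48.0 to 49.4 with trametinib, against 48.3 to 48.6 with trimebutine alone. The 8 had mean log2 values from 5.59 to 6.91 over the groups, of which Egfl7 had the highest, and Tie1 and Tek were under the low-signal limit of 5.83 and not tested. Tek had 6.32, 6.33 and 6.01 in arrays with trametinib, and at most 5.86 in the other 9. Of 14 dermal precursor markers 5 rose and 2 fell, among them Col3a1 (0.97), Twist2 (0.83) and Pdgfra (−0.79). For all counts of this paragraph without the block, the share over all genes tested was 16.8% higher and 16.6% lower. No Schwann cell marker among 5 and no keratinocyte marker among 4 passed, and of 4 neuronal markers Tubb3 rose by 2.86. With the block the Schwann cell marker S100b (0.58, adjusted p = 1.45e-05 by limma) rose and the neuronal marker Map2 (−0.36, adjusted p = 0.00546 by limma) fell. Among 12 macrophage markers Cd68 fell by 1.03, C1qa rose by 0.52 and the other 10 did not pass. With the block 4 rose, with Csf1r, C1qb and C1qc added, and 3 fell, with Ptprc and Cd14 added. Over all genes tested in that fit 21.2% were higher and 20.8% lower. The summed log2 values of the 12 macrophage markers were 87.7 to 97.0 with trametinib, against 89.2 to 100.6 with trimebutine alone.

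Apart from the drugs, several genes of the families differed between the 3 replicate numbers, which were taken to mark isolates. This test was chosen after the values were seen. With the groups in the model, the replicate number mattered for 9 of the 24 genes at an adjusted p under 0.05 (moderated F test in limma), which is 37.5%, beside 14.4% of all genes tested. The 9 were Sema4a, Sema4d, Nrp2, Sema4c, Sema3f, Sema3c, Sema3e, Nrp1 and Plxna2. Without trimebutine replicate 1 or without trimebutine replicate 2 there were 5.

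Sema4a, a transmembrane ligand found on immune cells, differed most. It had log2 values of 6.30 to 6.76 in the 4 arrays of replicate number 1, 7.05 to 7.30 in those of number 2 and 7.58 to 7.92 in those of number 3 (adjusted p = 7.7e-05 by limma). The 3 ranges did not overlap, whichever drug the cells had received. This spread gave Sema4a the largest SE of the family in the drug comparisons, 0.46, and its difference with trametinib added was 0.02.

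Sema4d, another semaphorin of immune cells, had 6.08 to 6.37 in number 1, 6.47 to 6.71 in number 2 and 6.49 to 7.05 in number 3 (adjusted p = 0.00107 by limma). The dimmer second feature of Sema4d did not share this order, with 6.12 to 6.54, 5.91 to 6.40 and 5.91 to 6.30. Sema4c was instead highest in number 1, with a mean of 8.28, against 7.96 in number 2 and 7.99 in number 3 (adjusted p = 0.0146 by limma). In arrays with trametinib it had 7.88, 7.81 and 7.84 in numbers 1, 2 and 3. Their SD was 0.04, against 0.19 to 0.25 in the other groups. Nrp2 averaged 9.48, 9.81 and 9.89 in numbers 1, 2 and 3 (adjusted p = 0.00227 by limma), and rose with trametinib in each of them, by 0.96, 0.62 and 0.74.

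Macrophage markers moved with the replicate number as well. Of the 12, 10 differed by the same test, and 11 were lowest in number 1, higher in number 2 and highest in number 3. Their summed log2 values were 87.3 to 90.0 in number 1, 93.6 to 94.98 in number 2 and 97.0 to 102.2 in number 3. The leukocyte marker Ptprc averaged 6.16, 7.13 and 8.33, and Tyrobp, an adaptor of myeloid cells, 7.77, 8.92 and 9.80. The Schwann cell marker S100b and the dermal precursor marker Sox2 were also lowest in number 1 and highest in number 3. Nes, another dermal precursor marker, ran the other way (8.69, 8.48 and 8.43), and the neuronal marker Map2 was lowest in number 2 (8.76, 8.36 and 8.75). No endothelial marker among 6 and no keratinocyte marker among 4 differed. The part of macrophages in the Sema4a and Sema4d differences was not tested.

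**Figure D5:**
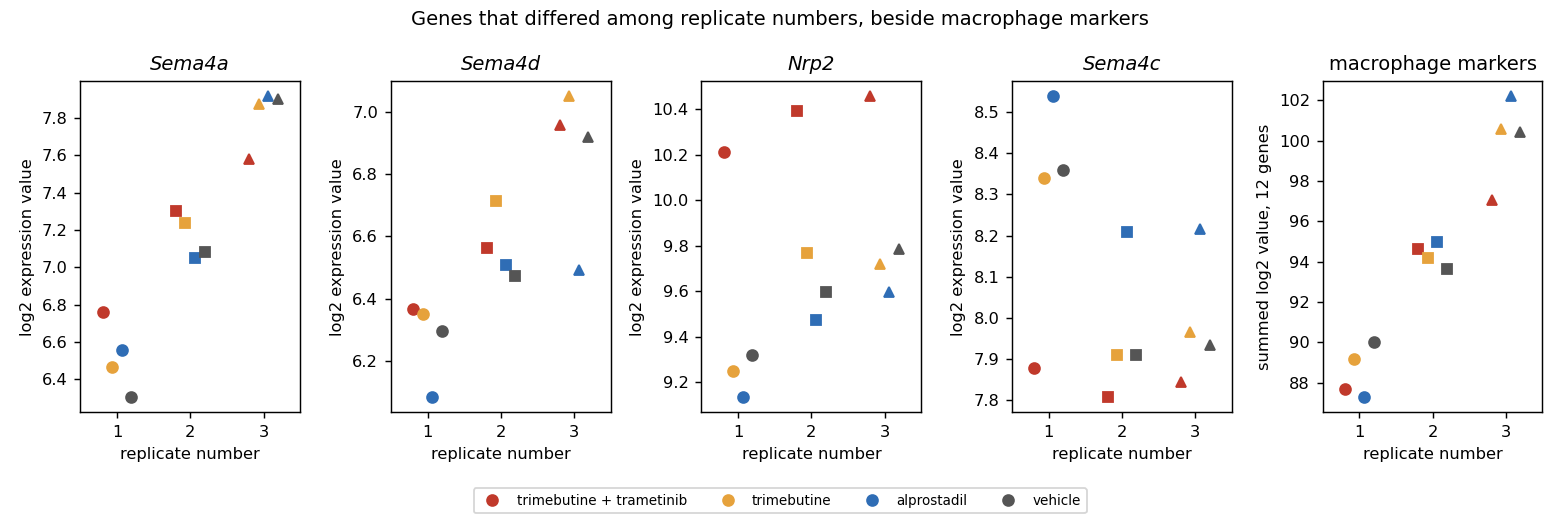
Log2 expression value (y axis) of Sema4a, Sema4d, Nrp2 and Sema4c, and the summed log2 value of 12 macrophage markers, by replicate number (x axis), with a point for each array coloured by treatment. Sema4a and the macrophage markers lie in 3 separate ranges, lowest in number 1 and highest in number 3, in all 4 treatments.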

How the data were processed

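Each of the 12 samples is total RNA on 1 Affymetrix Rat Gene 2.0 ST array with a single colour, as the series states. The deposited table holds a log2 value per feature; the submitters' processing notes name oligo and RMA, without versions. Since RMA brings arrays to a common distribution, changes in the amount of RNA in a cell are lost, and the number of arrays limits the precision.

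Of 36685 features 18511 had 1 gene symbol, and symbols were brought up to date by Entrez identifier with the RefSeq GRCr8 table (18394 matched). The brightest feature per symbol was kept (18166 genes), and genes with a mean under the 25th percentile, 5.83, were left out, which left 13636. One limma model (limma 3.58.1, R 4.3.3) with a mean per group was fitted to all 12 arrays (8 residual degrees of freedom), two-sided, with Benjamini-Hochberg adjustment within each comparison. Differences are of mean log2 values, n = 3 arrays per group. The steps were tested on simulated data.

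The genes and lists were chosen with earlier results of these data known, and lists are described by counts and medians with no set test. Array values are given for each gene that passed in a comparison and whose groups did not overlap there. Up to 4 genes per list and direction, by smallest p, were to be named, and where fewer than 3 passed, the 3 with the smallest p. Adam17, Mical1 and Mical2, Dpysl2 to Dpysl5, Itgb1, Pgf, the markers named and the genes called with the block alone were named for their role or to complete a count, after their values were seen.

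Replicate numbers were read from the titles, and the series' design text speaks of independent isolates. Deviations from the group mean correlated with r from 0.21 to 0.81 for the 18 pairs that share a number across groups. For the 36 pairs that do not, r lay between −0.71 and 0.10, so the numbers pair the samples. The model above nevertheless has no block, and the counts, SEs, intervals and p-values are from it unless the block is named. Its SEs therefore hold the differences between the numbers. For Nrp2 with trametinib added to trimebutine the SE was 0.16, and with the block it was 0.07. The fit with the number as a block had 6 residual degrees of freedom. The alternatives were the block, other low-signal filters, the mean of features, centred arrays, an intensity trend, only the groups compared, and leaving out each array.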

Additional observations from a re-analysis of the deposited data

How the results depend on the processing

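Without the replicate block 5 of the 24 semaphorin, plexin and neuropilin genes rose and 3 fell when trametinib was added. With it 8 rose and 5 fell, and against vehicle 8 rose. With the block, alprostadil lowered 1 partner gene, Cspg4, and among other guidance genes 2 were higher and 1 lower. Over all genes tested 1.17% were higher and 0.711% lower in that fit. Its counts for the partner and marker lists stand beside those lists. With an intensity trend 1 other guidance gene was higher with alprostadil. Leaving out each array in turn gave 4 to 6 family genes higher and 3 to 4 lower with trametinib added, 5 to 9 other guidance genes higher against vehicle (5 without vehicle replicate 2), and 0 to 1 higher and 0 to 1 lower for alprostadil. Without the low-signal filter 5 family genes differed among replicate numbers, and 5 to 9 did when each array was left out. In no alternative run was the direction of a called gene reversed. Sema7a, Sema3a, Sema6d, Sema3c, Sema3d, Nrp1 and Nrp2 passed in all 19 alternatives for both comparisons of the combination. Sema4b passed against vehicle in 5 of 19. Centring each array moved the median of all genes with trametinib added to 0.06, against 0.03. The causes were not tested, and the runs without an array were not repeated with the block.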
